A study of Rattus norvegicus with 6 samples.

Results

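The genes described here are 10 antiviral genes that type I interferon induces, measured in the renal cortex of rats given N-nitrosodimethylamine (NDMA), a nitrosamine that the body oxidises to a compound that methylates DNA. They are Mx1, Mx2, Oas1a, Ifit2, Ifit3, Isg15, Rsad2, Usp18, Ifih1 and Ifi44. Their probes were found by RefSeq transcript, which gave 21 probes of the 61657 non-control probes on a 1-colour Agilent rat array. The groups were NDMA at 4 mg/kg/day for 4 weeks (n = 3) and water (n = 3). Each array held total RNA of 1 animal, and the animals were males of the Sprague-Dawley stock, purchased at 5 weeks of age. The 10 genes were selected on their processed signals in this same contrast, with earlier results of it known, so their differences between the groups are given as a description and without p-values. Counts of these genes or their probes past a threshold are a description too, and no test of the genes.

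Type I interferons are secreted when a cell senses foreign nucleic acid. They bind a receptor made of IFNAR1 and IFNAR2, whose kinases JAK1 and TYK2 start the assembly of a complex that contains STAT2 and IRF9 and binds the interferon-stimulated response element (ISRE) of antiviral genes. Interferon gamma, made mainly by T and NK cells, acts through another receptor and on gamma-activated sites (GAS). Many genes respond to both interferons, and IRF1 also binds elements of the ISRE kind.

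The ISRE core was searched as GAAA, then NN (any base), then GAAA, on both strands in the RefSeq promoter table of rat build GRCr8, which covers 250 bases before to 50 bases after a gene's start. An entry was found for 6 of the 10 genes, and 5 of them held the core (83.3%), against 1312 of all 33469 promoters (3.92%). The stretches around the matches are shown because this element is what these genes are known to share, and it was not used to choose them. They are written 5′ to 3′ on the gene's strand, with the core in capitals.
Oas1a: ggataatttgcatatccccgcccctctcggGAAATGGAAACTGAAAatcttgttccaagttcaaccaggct
Ifit3: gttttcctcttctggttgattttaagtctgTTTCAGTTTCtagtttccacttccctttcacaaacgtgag
Rsad2: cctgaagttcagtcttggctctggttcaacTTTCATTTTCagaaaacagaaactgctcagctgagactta
Ifih1: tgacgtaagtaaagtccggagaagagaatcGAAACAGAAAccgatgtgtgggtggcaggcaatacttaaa
Ifi44: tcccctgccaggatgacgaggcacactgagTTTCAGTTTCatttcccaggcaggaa
These stretches lie at chr12:41330395-41330465 (plus strand) for Oas1a, chr1:241527252-241527321 (plus) for Ifit3, chr6:48788228-48788297 (minus) for Rsad2, chr3:67683988-67684057 (minus) for Ifih1 and chr2:243303841-243303896 (minus) for Ifi44. In Oas1a a pair of cores overlaps and begins 41 bases before the start. The cores begin 44, 147, 59 and 26 bases before it in Ifit3, Rsad2, Ifih1 and Ifi44, and Ifi44 has another core after its start. The promoter of Mx1 held no match in this window, and Mx2, Ifit2, Isg15 and Usp18 had no entry. The GAS letters TTCNNNGAA were found in 1 of the 6 promoters, that of Oas1a, against 8.87% of all promoters. A match is a run of letters and was not tested as a binding site.

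Between 43016 and 46248 probes were well above background on an array. Slide 1 carried NDMA animal 1 together with the 3 controls, while the remaining NDMA animals (2 and 3) were on slide 2, whose scan day differed, so these animals and their slide cannot be told apart. Signals are log2 processed intensities minus the 75th percentile of the array, and a difference is the NDMA mean minus the control mean, given with limma's moderated standard error (SE). Over all 31915 features, each gene read by its brightest probe, the median difference was -0.045. At a Benjamini-Hochberg adjusted p below 0.05, limma called 957 features, 805 up and 152 down in NDMA animals (728 up and 363 down with normexp background correction). With the slide as a block, a fit in which the contrast rests on NDMA animal 1 and the controls, 67 were called. The marker genes of cortical nephron segments were present: 6 of 6 proximal tubule genes and 6 of the 7 listed genes of the glomerulus and other segments were measured.

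None of the 10 antiviral genes passed, and their differences ran from -0.38 for Mx2 to 0.62 for Isg15, with a median of 0.18. The count in limma was 0 of 10. Over all features 3.00% passed, 2.52% upward and 0.476% downward. Before adjustment 3 of the 10 were at p under 0.05 in limma, as were 5988 of all 31915 features. Since the genes were chosen with this contrast known, nothing is read from these counts. Of the 10, 8 had a difference above 0, where 41.3% of all features did. The 3 NDMA animals lay above all controls in 3 genes and below all controls in 1, and over all features the groups separated in 27.6%, with NDMA above in 11.1% and below in 16.5%. Since whole cortex was measured, more cells of a type and more RNA per cell cannot be told apart in any of these values.

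**Figure D1:**
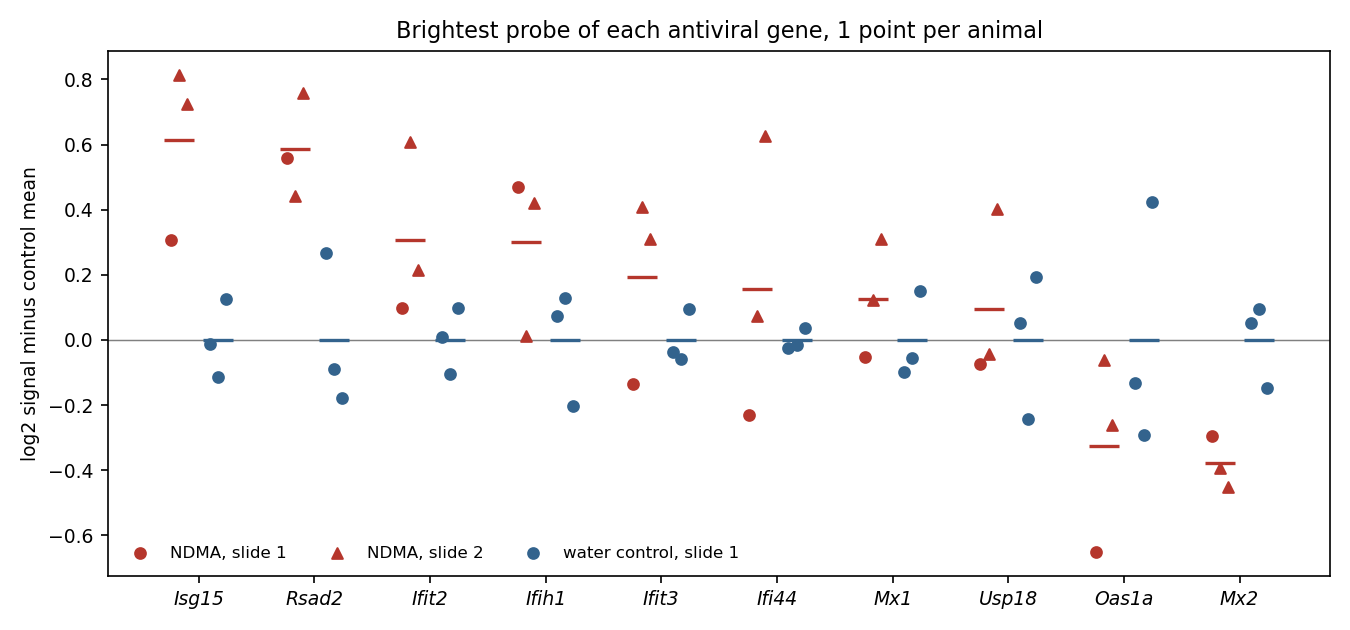
Log2 signal of the brightest probe of each antiviral gene, minus the mean of the 3 controls, with 1 point per animal (red, NDMA, left; blue, water control, right; circles, slide 1; triangles, slide 2) and horizontal lines at the group means. Isg15, Rsad2 and Ifit2 are the genes whose NDMA animals all lie above the controls, and in Mx2 all lie below. In 7 of the 10 genes, all but Mx2, Rsad2 and Ifih1, the NDMA animal of slide 1 is the lowest of its group.

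Ifih1 encodes MDA5, a cytosolic sensor of long double-stranded RNA. Its single probe had signals of -2.77, -3.22 and -2.81 in NDMA animals 1 to 3, against -3.16, -3.11 and -3.44 in controls 1 to 3. NDMA animals 1 and 3 lay above all controls and NDMA animal 2 lay among them, and the difference was 0.30 ± 0.16.

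Isg15 encodes a ubiquitin-like protein that is joined to other proteins during the interferon response. Its single probe read 0.79, 1.30 and 1.21 in NDMA animals 1 to 3, against 0.47, 0.37 and 0.61 in controls 1 to 3. The groups did not overlap, and NDMA animal 1 was the nearest to the controls. The difference was 0.62 ± 0.15, a 1.53-fold higher signal, and it was 0.31 with the slide as a block.

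Usp18 removes ISG15 from its targets and also dampens signalling from the type I receptor. Its brightest probe read -2.12, -2.08 and -1.64 in NDMA animals 1 to 3, against -1.99, -2.28 and -1.85 in controls 1 to 3, and the groups overlapped. The 3 probes of Usp18 differed by 0.095 ± 0.17, -0.022 ± 0.16 and -0.19 ± 0.32, so they did not share a sign. On the dimmest of them NDMA animal 1 stood apart at -5.52, with -4.38 and -4.29 in the other NDMA animals and from -4.58 to -4.47 in the controls.

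Rsad2 encodes viperin, an enzyme that makes a chain-terminating nucleotide and blocks the replication of many viruses. Its brightest probe read 1.59, 1.48 and 1.79 in NDMA animals 1 to 3, against 1.30, 0.94 and 0.86 in controls 1 to 3. The groups did not overlap on any of its 3 probes. The brightest probe differed by 0.59 ± 0.15, and the second by 0.47 ± 0.14. The third differed by 0.86 ± 0.23, but it was well above background in only 1 of the 3 controls, so its fold is not well measured. Of the 10 genes, Rsad2 had the largest difference above 0 in the fit with the slide as a block, at 0.56. Oas1a was at -0.65 in that fit.

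Ifit2 and Ifit3 lie side by side on chromosome 1 in the RefSeq gene table, with 0 protein-coding genes listed between them, and encode tetratricopeptide proteins that restrict viral RNA. Ifit2 read -1.76, -1.25 and -1.65 in NDMA animals 1 to 3, against -1.86, -1.97 and -1.77 in controls 1 to 3. The groups did not overlap, but NDMA animal 1 and control 3 differed by less than 0.01. The difference was 0.31 ± 0.15, and the dimmer probe, whose groups did not overlap either, gave 0.44 ± 0.16. Ifit3 read -2.69, -2.15 and -2.25 in NDMA animals 1 to 3, against -2.59, -2.61 and -2.46 in controls 1 to 3. Here NDMA animal 1 was the lowest of all 6 animals and the other NDMA animals were the highest. The brightest probe of Ifit3 differed by 0.19 ± 0.15 and the other by 0.068 ± 0.21.

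Ifi44, whose product is a cytoplasmic protein induced by interferon, had the same pattern of animals. Its brightest probe read 0.08, 0.39 and 0.94 in NDMA animals 1 to 3, against 0.29, 0.30 and 0.35 in controls 1 to 3. NDMA animal 1 lay below all controls and the slide 2 animals above them. The difference was 0.16 ± 0.21 by this probe, and 0.39 ± 0.14 and 0.22 ± 0.20 by the others. Only for the probe at 0.39 did the groups not overlap.

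Mx1 and Mx2 encode dynamin-like GTPases that trap viral components, in the nucleus and in the cytoplasm of rat cells. Mx1 read 1.76, 1.93 and 2.12 in NDMA animals 1 to 3, against 1.71, 1.75 and 1.96 in controls 1 to 3. The groups overlapped, with a difference of 0.13 ± 0.12 and 0.37 ± 0.20 by the dimmer probe. Mx2 read 6.07, 5.97 and 5.92 in NDMA animals 1 to 3, against 6.42, 6.46 and 6.22 in controls 1 to 3. All NDMA animals lay below all controls, and the difference was -0.38 ± 0.099, a 1.30-fold lower signal. The probe was bright, with 925 of the 61657 probes above it, and it was saturated on 0 of the 6 arrays. The other Mx2 probe differed by -0.50 ± 0.26, and its groups overlapped. It read -4.45, -3.42 and -3.65 in NDMA animals 1 to 3, against -3.38, -3.44 and -3.21 in controls 1 to 3. This second probe of the same transcript was far dimmer, with 32965 of the 61657 probes above it. Whether the bright probe reads Mx2 alone was not tested. Mx1 and Mx2 are related genes, and binding of one transcript to a probe of the other was not tested.

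Oas1a encodes an enzyme that makes oligoadenylates from ATP when it binds double-stranded RNA, which activates the ribonuclease RNase L. Its brightest probe read -0.09, 0.49 and 0.30 in NDMA animals 1 to 3, against 0.43, 0.26 and 0.98 in controls 1 to 3. The groups overlapped, with NDMA animal 1 the lowest and control 3 the highest of the 6 animals. The difference was -0.32 ± 0.23, and -0.55 ± 0.23 by the other probe. The rat genome has several genes close to Oas1a, and binding of their transcripts was not tested.

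**Figure D2:**
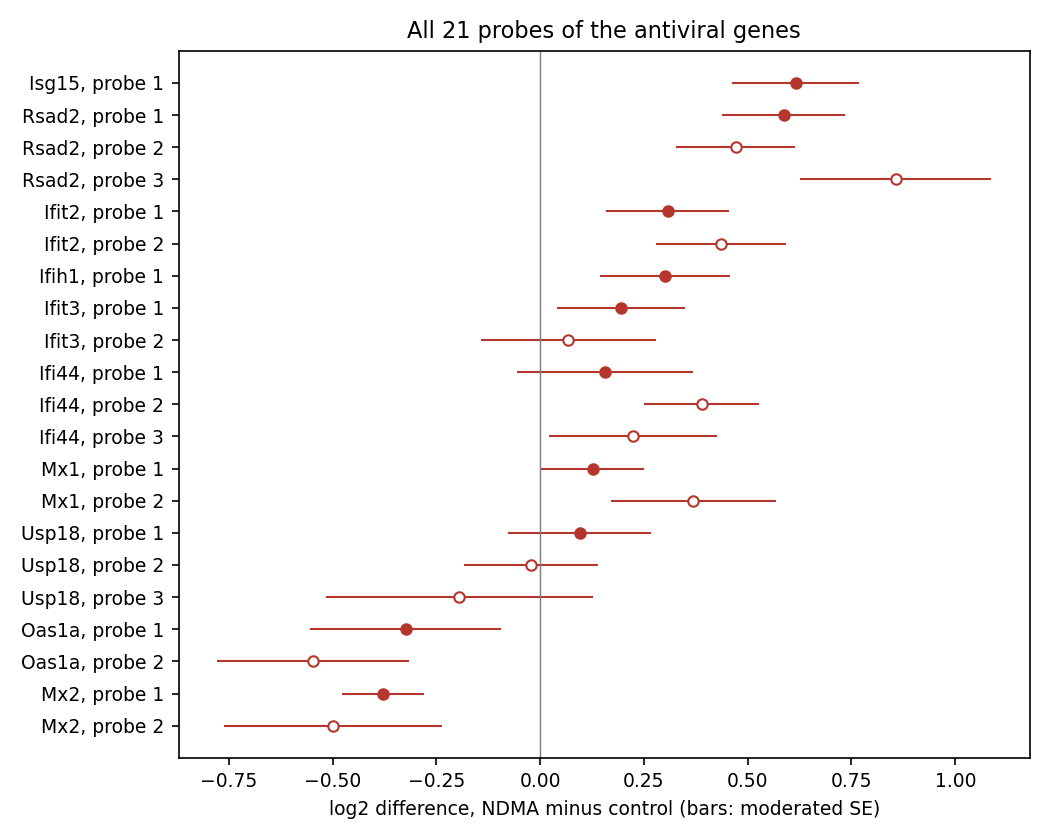
Log2 difference (NDMA minus control) of each of the 21 probes of the antiviral genes, with bars of 1 moderated SE; filled points are each gene's brightest probe. Of the 21 probes 15 lie above 0 and 6 below, and Usp18 is the gene whose probes fall on both sides.

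Of the 8 genes with more than 1 probe, 7 had all probes on 1 side of 0. Over the 21 probes limma called 0, where 2.99% of all probes were called, 2.50% upward and 0.485% downward. Before adjustment 7 of the 21 were at p under 0.05 in limma, as were 7882 of all 43118 probes. Nothing is read from these counts either, since the genes were chosen with this contrast known. The NDMA animals lay above all controls on 7 probes and below them on 1, and over all probes the groups did not overlap on 26.9%, with NDMA above on 10.9% and below on 16.0%. The spread within a group ran from a pooled SD of 0.11 for Mx2 to 0.34 for Oas1a, where the median over all features was 0.15. For 9 of the 10 genes that SD was above the median of all features, and for Mx2 it was at the 29.5th percentile.

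The NDMA animals differed from each other in these genes. Relative to the control mean, the median over the 10 genes was -0.063, 0.097 and 0.36 in NDMA animals 1, 2 and 3. Animal 1, on the controls' slide, was the lowest of the 3 NDMA animals in 7 of 10 genes, where this held for 29.2% of all features. This was not particular to the 10 genes. Among lists described below, it held for 21 of 32 other effectors, 11 of 18 interferon gamma genes and 6 of 8 macrophage and dendritic cell markers. It held for 6 of 13 sensors and adaptors, 4 of 8 T and NK cell markers and 0 of 6 proximal tubule markers. Above the control mean were 4 of the 10 antiviral genes in animal 1, 7 in animal 2 and 8 in animal 3. With the slide as a block the median difference of the 10 genes was -0.063 instead of 0.18, and the differences of Mx1, Ifit3, Usp18 and Ifi44 were below 0. Slide 2 holds no control, and the part of the slide in these values was not tested.

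**Figure D3:**
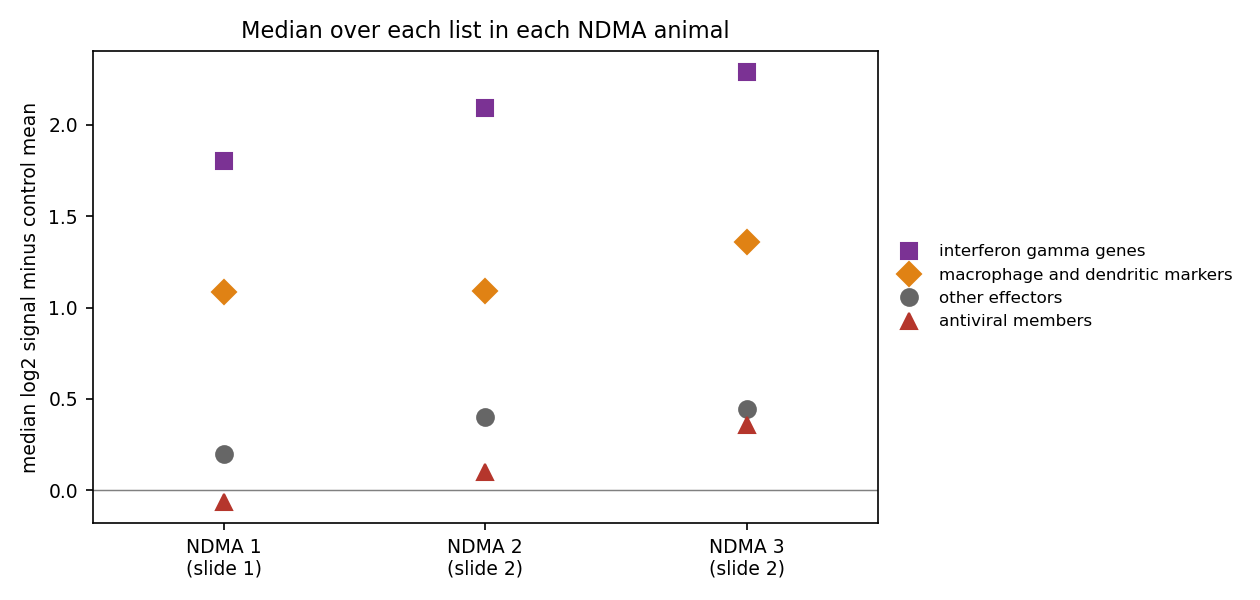
Median over each gene list of the log2 signal minus the control mean, in each of the 3 NDMA animals. The antiviral genes lie between -0.063 and 0.36 and the interferon gamma genes between 1.80 and 2.29, with the macrophage and dendritic cell markers at 1.08 to 1.36.

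Few genes of the ligands and receptors were measured. Ifnb1, which encodes interferon beta, was not well above background on all arrays of either group and was not tested. Of the 15 listed type I and III interferon and receptor genes 3 were measured and limma called 0 (0 before adjustment as well). Ifna4, an interferon alpha gene with close relatives, differed by 0.027 ± 0.074 (adjusted p = 0.869). The receptor chain genes Ifnar1 and Il10rb differed by -0.037 ± 0.10 and 0.11 ± 0.13 (adjusted p = 0.874 and 0.696), and no probe was matched to Ifnar2.

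Stat2 and Irf9, whose products act downstream of the receptor, had larger differences than most of the antiviral genes. Stat2 read 2.53, 2.69 and 2.66 in NDMA animals 1 to 3, against 2.05, 2.07 and 2.17 in controls 1 to 3, and all NDMA animals lay above all controls. It rose 1.45-fold (0.53 ± 0.085, adjusted p = 0.0308), where 2.52% of all features rose, and it passed in 1 of the 6 fits that left out 1 animal, that without NDMA animal 1 (adjusted p from 0.0495 to 0.123). The other Stat2 probe gave 0.49 and did not pass (adjusted p over probes 0.159). Irf9, which completes the type I complex, differed by 0.61 ± 0.12 without passing (adjusted p = 0.0555), and its other probe gave 0.66 (adjusted p over probes 0.0282). The kinase gene Jak1 differed by 0.13.

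Of 13 measured sensors and adaptors 1 rose and 0 fell, with a median difference of 0.082, where 2.52% of all features rose. The 1 that rose was Sting1, the adaptor for cytosolic DNA, at 0.89 ± 0.11 (1.86-fold, adjusted p = 0.0144, and 0.0593 without control 1). The other Sting1 probe gave 0.86 and did not pass (adjusted p over probes 0.0873). Irf7, the factor that amplifies interferon alpha production and is itself interferon-induced, read 0.56, 0.92 and 0.92 in NDMA animals 1 to 3, against 1.21, 0.81 and 1.76 in controls 1 to 3. Its groups overlapped and it differed by -0.46 ± 0.25 (adjusted p = 0.364), and control 3 was its highest animal, as in Oas1a. Ube2l6, the conjugating enzyme for ISG15, was the only measured member of a list of 3 and differed by 0.91 ± 0.20 (adjusted p = 0.0746).

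Of 32 other measured interferon-induced effectors 8 rose (2.52% of all features did) and 0 fell, with a median difference of 0.30. They included Parp14, an ADP-ribosyltransferase (1.24 ± 0.10, 2.37-fold, adjusted p = 0.00669), and the partners Parp9 and Dtx3l, which form a complex that modifies histones and viral proteins (1.03 ± 0.093 and 1.30 ± 0.15, adjusted p = 0.00742 and 0.0122). Dtx3l was at 0.52 with normexp, and its call was lost without NDMA animal 2 or control 1 (adjusted p = 0.0514 and 0.0506). Epsti1 rose by 1.25 ± 0.16 (adjusted p = 0.0147) and was at 0.82 with normexp, and it did not pass without NDMA animal 3 (adjusted p = 0.0635). The others were Nmi, Ifitm1, Ifi44l and Cmpk2, at 0.76, 0.56, 0.94 and 0.59, which are named to complete the count. Among those that did not pass were the oligoadenylate synthetase genes Oas1b, Oas1i, Oas1k, Oas2, Oas3 and Oasl, with differences from -0.62 for Oas3 to -0.12 for Oas1b, and Oas1h and Oasl2 at 0.42 and 0.28. The SE of Oas3 was 0.55, and its NDMA animal 3 lay above all controls while NDMA animals 1 and 2 lay below them. Oas1h had an SE of 0.42 and was well above background in only 2 of the 3 controls. These synthetase genes were named after their values were seen. Cmpk2, a kinase of nucleotide metabolism induced by interferon, passed narrowly (adjusted p = 0.0495), with a difference close to that of Rsad2 (both 0.59).

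Over the 5 lists of the type I pathway, limma called 11 of 53 measured genes, all upward, and the median difference over the 53 was 0.20. Over all features 2.52% rose. The lists were chosen with earlier results of these data known, so their counts are a description. The count was 0 with the slide as a block (15 at an unadjusted p under 0.05), 2 with a block for the replicate number of the titles and 6 without the detection filter. It was 10, 6 and 4 without NDMA animal 1, 2 and 3, and 4, 6 and 6 without control 1, 2 and 3. With the slide as a block Parp14 differed by 1.13, close to its value without it (adjusted p = 0.0766).

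Genes of the interferon gamma response, measured on the same arrays, had larger differences. Of 18 measured genes 14 rose and 0 fell, with a median difference of 2.07, where 2.52% of all features rose. This list too was chosen with earlier results of these data known, so its count is a description. The chemokine gene Cxcl9 read 1.44, 1.30 and 1.78 in NDMA animals 1 to 3, against -4.45, -3.83 and -4.92 in controls 1 to 3. Irf1 differed by 2.11 ± 0.17 (4.31-fold, adjusted p = 0.00607), and Cxcl10, Psmb9 and Tap1 by 3.71, 2.43 and 2.43. Ifng itself was well above background in all 3 NDMA animals and in 0 of the 3 controls, so it was kept only through the NDMA group and its control level is a bound. Its processed signal was at least 1.94-fold higher in NDMA animals, but its log2 difference was 0.49 with normexp, below that bound. In the slide-block fit it did not pass (adjusted p = 0.0658). Among the 17 genes well above background on all arrays, which leaves Ifng out, 13 rose. The 18 differences ran from 0.20 for the receptor gene Ifngr1 to 5.91 for Cxcl9. Ifngr1 and Ifngr2, at 0.20 each, were below the highest of the 10 antiviral genes, 0.62 (both named after their values were seen). With the slide as a block 8 of the 18 passed and the median was 1.80. The ISRE core was also found in 8 of 17 promoters of this list (47.1%) and the GAS letters in 6 (35.3%), and among the type I lists the core was in 5 of 9 promoters of genes that rose and in 15 of 34 of those that did not pass.

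**Figure D4:**
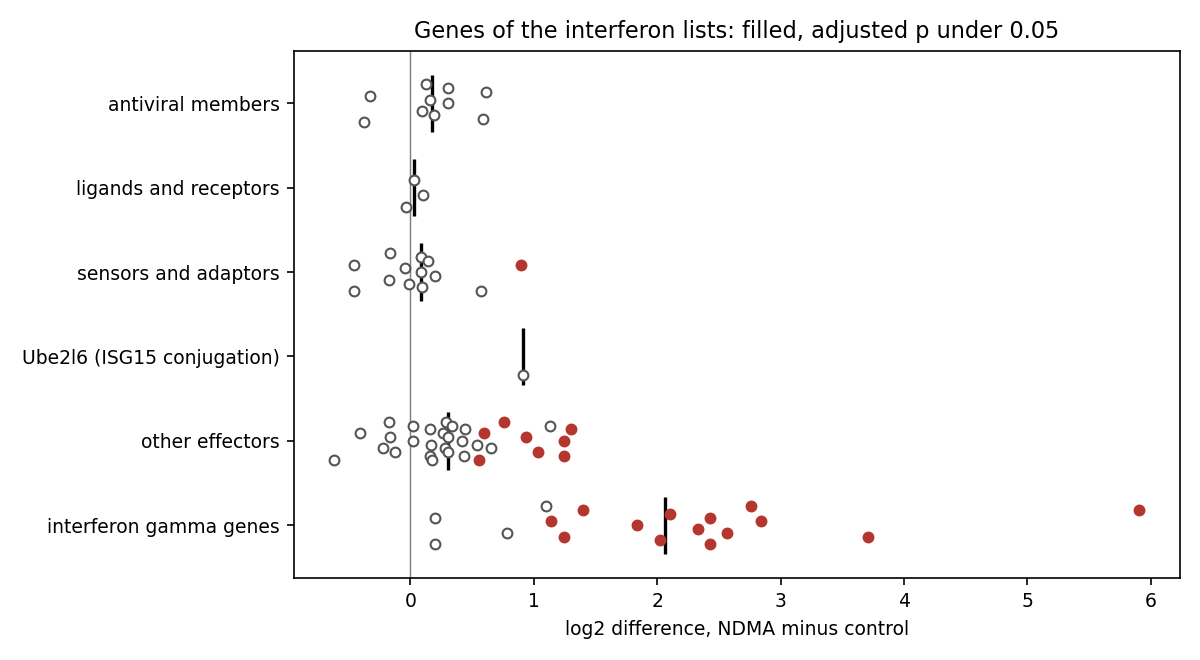
Log2 difference (NDMA minus control) of each measured gene of the interferon lists named at the left (receptor signalling is not drawn), with filled points for genes past the threshold and a black line at each list's median. The antiviral genes lie between -0.38 and 0.62, and 14 of the 18 interferon gamma genes are filled, with the 18 between 0.20 and 5.91.

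Leukocyte markers differed between the groups on the same arrays. Of 8 measured macrophage and dendritic cell markers 6 rose, where 2.52% of all features rose. Ptprc (CD45), 1 of the 6, is made by leukocytes in general. Adgre1 and Itgam differed by 0.15 and 0.81 and did not pass (adjusted p = 0.661 and 0.492), and Cd163 was below background. The summed signal of the 8, in units of each array's 75th percentile, was 46.7 to 56.1 in NDMA animals and 18.1 to 22.5 in controls. Of 6 T cell markers 5 rose, namely Cd3d, Cd3e, Cd3g, Cd247 and Cd4, and Cd8a differed by 0.93 (adjusted p = 0.115). Cd3e was well above background in only 2 of the 3 controls, so it was kept only through the NDMA group. The cytotoxic and NK cell genes Klrd1 and Nkg7 differed by -0.58 and -0.095 (adjusted p = 0.192 and 0.811), and all NDMA animals lay below all controls in Klrd1. The summed signal of these 8 genes was 5.72 to 6.42 in NDMA animals and 2.56 to 3.09 in controls. Of 6 measured markers of plasmacytoid dendritic cells, which make much type I interferon, limma called 0 (1 before adjustment), with sums of 6.83 to 7.99 in NDMA animals and 5.56 to 7.42 in controls. No probe was matched to Siglech, and Bst2 and Tlr7 of this list are also made by other cells. Of the 6 proximal tubule markers all had differences below 0, where only 41.3% of all features lay above 0. Of the 6, Lrp2 alone fell, where 0.476% of all features did. Their sums were 944 to 1090.4 in NDMA animals and 1240.0 to 1297 in controls. The part of these cells in the values of the antiviral genes was not tested.

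Among 11758 other genes well above background on all arrays, those whose signals over the 6 animals were most like the mean profile of the 10 antiviral genes were Zzz3, Thsd1, Htr3b, Npy4r and Ror2, with Pearson correlations of 0.981, 0.977, 0.974, 0.972 and 0.971. No gene of the interferon lists was among these 5. As only 5 of 11758 genes are listed, this does not show whether interferon genes follow the profile. The 6 animals fall into 2 groups and 2 slides, which all genes share, and with so many candidates such values are a description. The 5 genes differed by 0.044, 0.19, 0.18, 0.54 and 0.18 between the groups, and limma called 0 of them (1 before adjustment).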

How the data were processed

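Cy3-labelled total RNA of renal cortex from 6 rats was measured on 1-colour arrays, per the labels' protocols, and the series' design text gives each replicate as its own animal. The authors read the scans with Feature Extraction (10.7 in the submitters' processing notes, 10.7.1.1 in the headers). Per the file headers, their processed intensity has background subtracted and a spatial trend removed within its array, and no scaling between arrays. In the authors' deposited value table each value is a linear ratio, which matched the processed intensity over the array's 75th percentile within 0.00174 (log2) for values above 0.1; its column medians were 0.114, 0.112 and 0.113 for NDMA and 0.112, 0.110 and 0.113 for controls. Its direction is known, and no centring was found. The array annotation names build rn4, so coordinates are given only for promoters, from RefSeq build GRCr8.

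Processed intensities were scaled to the 75th percentile over non-control probes (993 to 1310), spots with outlier flags were left out (18 values, none in the 21 probes), and a probe was kept if 1 or both groups had it well above background on all 3 arrays (43118 probes, 31915 features). Genes were named by RefSeq accession without version (27460 probes). The comparison used lmFit and eBayes of limma 3.58.1 (R 4.3.3), with 4 residual degrees of freedom and 2.36 from the prior. Two-sided p-values were adjusted by Benjamini-Hochberg over all features, or all probes where stated, with a threshold of 0.05. The fit was tested on simulated data. An exact permutation test of 3 against 3 cannot go below p = 0.1, so none is given. The number of arrays limits the precision.

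The 10 genes and all lists were chosen with earlier results of these data known. The text names the 10 genes, up to 4 genes past the threshold by smallest p in each list (or else 3), 10 fixed genes (among them Ifnb1, Ifnar1, Ifnar2, Stat2, Irf9, Irf7, Ifng, Irf1 and Cxcl9, with 1 gene that is not reported here), and the 5 genes most like the mean profile; other names were added after their values were seen. List entries Mx3 and Oas1g resolved to Mx2 and Oas1a and were dropped from the list of other effectors.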

Additional observations from a re-analysis of the deposited data

How the results depend on the processing

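The number of features passing was 957. It was 371 without the detection filter, 67 with the slide as a fixed block, 0 on slide 1 alone (3502 at an unadjusted p under 0.05 in limma, with NDMA animal 1 assumed to vary like the controls), 351 with the replicate block, and 364 to 749 without 1 animal (749, 458 and 367 without NDMA animal 1, 2 and 3, and 364, 520 and 505 without control 1, 2 and 3); 41 and 327 of the 957 were shared with the slide block and the replicate block. Of the 10 antiviral genes 0 passed except for 1 with a trended and robust variance (Mx2) and 0 to 1 without 1 animal (Isg15, without NDMA animal 1). Their median of 0.18 was -0.063 with the slide as a block and on slide 1 alone, and 0.086 to 0.28 without 1 animal. For the type I lists the count of 11 was 6 without the detection filter, 0 with the slide block, 0 on slide 1 (17 at an unadjusted p under 0.05), 2 with the replicate block and 4 to 10 without 1 animal. Animals with the same replicate number in the titles did not deviate together (correlations of 0.0386, -0.0481 and 0.0257), so the numbers do not pair them, and a call lost in that block is no sign of a smaller difference. For the interferon gamma list the count of 14 was 8 with the slide block and 0 on slide 1 (15 at an unadjusted p under 0.05), and the median of 2.07 was 1.84 with normexp and 1.80 with the slide block and on slide 1. Normexp used the median signal and was chosen after seeing the data; the planned setting on the mean signal was not run. Among 17 settings, the sign turned in 13 of 170 values of the 10 genes. Many of these values could not turn. Both changed detection filters, the trended variance and the replicate block left the differences of the 10 genes as in the main fit. Slide 1 alone repeated those of the slide block, and the authors' value table has nearly the same scaling. With the slide block and on slide 1, Mx1 was at -0.051, Ifit3 at -0.13, Usp18 at -0.0745, Ifi44 at -0.23, Ifna4 at -0.017, Ifnar1 at 0.0047, Zzz3 at -9e-04, Htr3b at -0.013 and Ror2 at -0.041. Usp18 was at -0.0067 with normexp and -0.022 over every probe, Ifna4 at -0.067 with normexp and Ifnar1 at 0.062 over every probe. Without 1 animal, Usp18 ran from -0.058 to 0.19 (below 0 without NDMA animal 3 or control 2), Ifi44 from -0.079 to 0.35 (below 0 without NDMA animal 3), Ifnar1 from -0.13 to 0.028 (above 0 without control 1) and Il10rb from -0.024 to 0.22 (below 0 without control 3). The cause of these changes was not tested. Rsad2, Isg15, Ifit2 and Ifih1 stayed above 0, and Mx2 and Oas1a below 0, in all 17 settings, which are not 17 separate checks of the sign.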
